A study of Mus musculus with 6 samples.

Results

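Neurons release transmitter from synaptic vesicles, and 29 mouse genes of that machinery were followed in tissue of the locus coeruleus, a small nucleus of the pons and the main source of noradrenaline for the brain. The genes were chosen by name and role, with no measured value in the rule, and each was matched by its Ensembl identifier to 1 of the 56923 genes in the deposited table. Bulk poly-A RNA sequencing had been done on 3 libraries from 5xFAD transgenic mice (numbered 64, 65 and 79) and 3 from wild-type (WT) mice (62, 63 and 66). The 5xFAD line carries human transgenes with mutations of familial Alzheimer's disease, driven by mouse Thy1 regulatory sequence that is active mainly in neurons. No other allele, treatment, age or sex is given for either group in the labels. They do not state whether the numbers stand for separate animals, so the spread behind each p-value may be partly technical. The nucleus was punched out of brain slices, so each library mixes neurons with glia and with tissue at the border of the punch. In such bulk samples, fewer cells of a type and less RNA per cell cannot be told apart.

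In a nerve terminal, SNARE proteins of the vesicle and of the plasma membrane zip together and fuse the membranes, and synaptotagmins trigger this step when they bind calcium. Active-zone scaffolds hold vesicles and calcium channels at the release site, Munc13 and RIM proteins prime vesicles there, and complexins act on the assembled SNARE complex. After fusion, NSF and SNAP proteins take the complexes apart, while dynamin, endophilin and synaptojanin retrieve the membrane. Several of these proteins come as paralogues whose proportions differ between brain regions, with Vamp1, Syt2 and Cplx1 prominent in fast synapses of hindbrain and spinal cord and Vamp2, Syt1 and Cplx2 prominent in forebrain.

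The values are normalized counts, which are reads per gene divided by 1 size factor per library. The 5xFAD libraries held 15158712 to 17774759 reads assigned to genes and the WT libraries 17362733 to 20079349. Thy1, part of whose sequence the transgene cassettes carry, gave 21875, 16885 and 22211 normalized counts in 5xFAD libraries, against 8755, 7976 and 9089.6 in WT libraries. Every 5xFAD library was thus above every WT library. The defining genes of noradrenergic neurons were present in every library. Slc6a2, the noradrenaline transporter, gave 3493, 4978 and 3827 normalized counts in 5xFAD libraries, against 3914, 4451 and 2311 in WT libraries. Dbh, the enzyme that makes noradrenaline, ranged from 1879 to 2895 in 5xFAD and from 1281 to 2492 in WT libraries, and Th, tyrosine hydroxylase, from 649 to 1100.2 and from 434 to 877. All 29 vesicle genes had reads in all 6 libraries and passed the filter on low values. Together they took 1.28% to 1.38% of the reads of a 5xFAD library and 1.35% to 1.39% of those of a WT library.

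None of the 29 vesicle genes passed the limma test between the genotypes at an adjusted p of 0.05, where 0.00609% of the 16411 genes tested passed. No vesicle gene had an unadjusted p under 0.05, a level that 2.32% of all tested genes reached, and edgeR and DESeq2 on the recovered reads likewise called 0 of the 29, against 0.00609% and 0.0244% of all tested genes. In 0 of the 29 did the 3 5xFAD libraries lie wholly above or wholly below the 3 WT libraries, against 7.42% of all tested genes (3.72% higher and 3.70% lower in 5xFAD). Log2 fold changes of 5xFAD over WT ran from −0.19 for Vamp1 to 0.15 for Doc2a, with 15 positive and 14 negative. Their median was 0.0047, and their median size regardless of sign was 0.071, against 0.00053 and 0.075 over all tested genes. The 95% interval lay within a 1.5-fold change in either direction for all 29, against 71.4% of all tested genes. The median half-width of that interval was 0.170 on the log2 scale for the vesicle genes and 0.254 for all tested genes, whose median level of 319 normalized counts was far below the 5889 of the vesicle genes. In the authors' deposited table the smallest unadjusted p among the 29 was 0.112, for Rph3a, with an adjusted p of 0.9999, and 0.0106% of the genes with an adjusted p in that table passed.

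**Figure D1:**
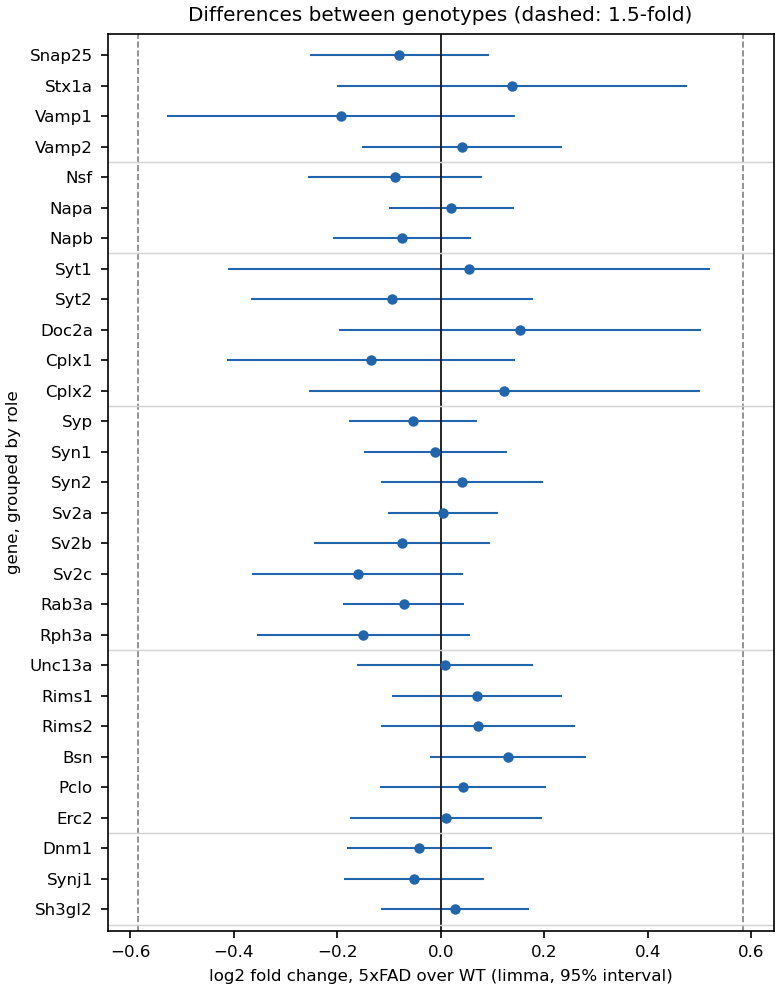
Log2 fold change of 5xFAD over WT (x axis) for each of the 29 vesicle genes, ordered by role, as a point with its 95% interval from limma (n = 3 each). Every interval crosses 0 and lies between the dashed lines that mark a 1.5-fold change.

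Levels were compared between genes per kilobase of annotated exon, since longer transcripts yield more reads. Cplx1, which encodes complexin 1, had the highest level, with 6704 ± 1004 normalized counts per kilobase in 5xFAD and 7329 ± 756 in WT libraries (SD, n = 3 each). Snap25, the plasma-membrane SNARE that contributes 2 helices to the complex, had 5781 ± 483 per kilobase in 5xFAD and 6105 ± 424 in WT libraries. Cplx1 lay above Snap25 in all 6 libraries, although the ranges of the pair overlapped among 5xFAD libraries. Syp, the vesicle membrane protein synaptophysin, came next with 3208 ± 113 per kilobase in 5xFAD and 3330.4 ± 129 in WT libraries, followed by Dnm1, Rab3a and Sv2a at 2362 to 2943 per kilobase in the group means. At the low end were Doc2a, with 70.5 ± 2.88 per kilobase in 5xFAD and 64.3 ± 13.4 in WT libraries, Erc2, with 100.5 ± 1.96 in 5xFAD and 100.1 ± 11.5 in WT libraries, and Stx1a, with 110.1 ± 17.8 in 5xFAD and 100.04 ± 16.9 in WT libraries. The levels of Erc2 and Stx1a did not differ beyond their SD. The scaffold genes Bsn, Pclo, Rims1, Rims2, Unc13a and Erc2 all lay in the lower part of the order, with group means of 100.1 to 278 per kilobase. Exon length was the union over annotated isoforms, so genes with long alternative ends are understated.

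**Figure D2:**
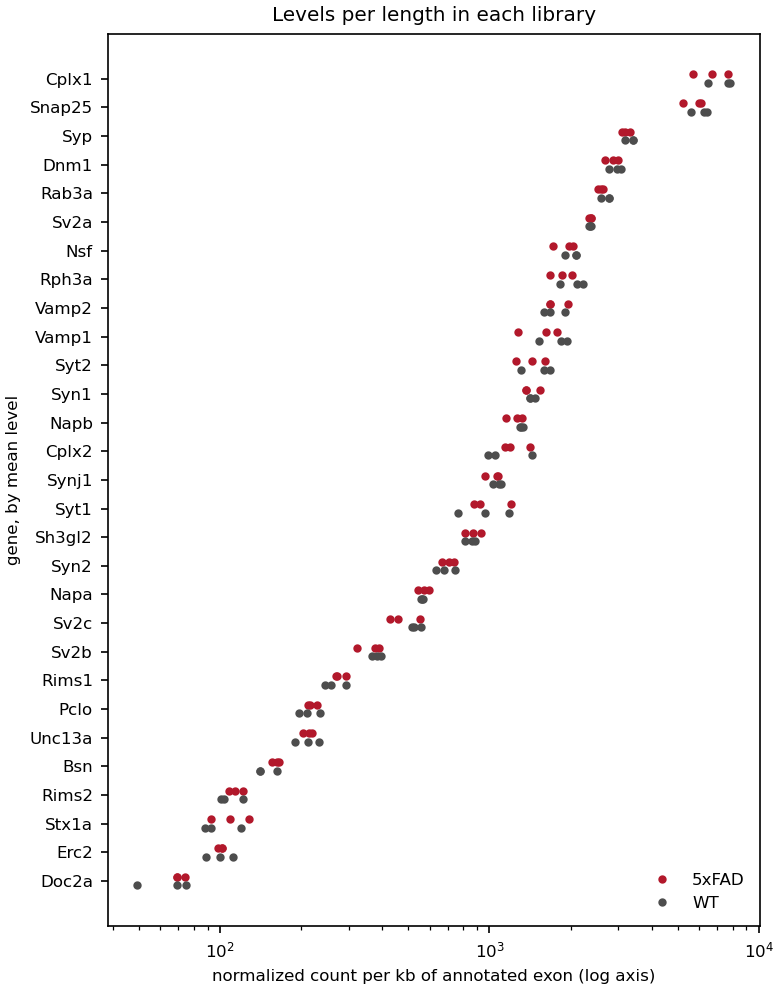
Normalized count per kilobase of annotated exon (x axis, log scale) in each library, with 5xFAD points above and WT points below for each gene, and genes ordered by mean level. Cplx1 and Snap25 lie highest and Doc2a lowest, and the points of the genotypes overlap in every gene.

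Among the SNARE genes, 2 had positive and 2 negative log2 fold changes, and none passed. Snap25 (ENSMUSG00000027273.14) gave 40774, 35488 and 41505 normalized counts in 5xFAD libraries 64, 65 and 79, against 42642, 38181 and 43563 in WT libraries 62, 63 and 66. The lowest library of each genotype was 65 in 5xFAD and 63 in WT, and the groups overlapped, with a log2 fold change of −0.08 (95% interval −0.25 to 0.09, SE 0.08). Vamp1 (ENSMUSG00000030337.17), a vesicle SNARE, gave 16494, 12946 and 18139 in 5xFAD libraries, against 18825, 15559.6 and 19732 in WT libraries. It had the largest difference of the 29 genes, a log2 fold change of −0.19 (95% interval −0.53 to 0.14, SE 0.14), and its groups still overlapped because WT 63 lay below 5xFAD 64 and 79. The Vamp1 value was −0.05 without 5xFAD 65 and −0.30 without 5xFAD 79 or WT 63. Its paralogue Vamp2 gave 6392, 7480.0 and 6408 in 5xFAD libraries, against 6377, 7285 and 6054 in WT libraries. Vamp2 was highest in the very libraries where Vamp1 was lowest, 5xFAD 65 and WT 63, and its log2 fold change was 0.04 (SE 0.09). Stx1a, the plasma-membrane syntaxin 1A, was a low gene at 247, 342 and 291 in 5xFAD libraries, against 247, 318 and 235 in WT libraries, with a log2 fold change of 0.14 (95% interval −0.20 to 0.48, SE 0.15). 5xFAD 65 and WT 63 were its highest libraries, and the groups overlapped.

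Of the 3 genes of SNARE disassembly, 1 had a positive and 2 a negative log2 fold change, and none passed. Nsf, the ATPase that pulls spent complexes apart, gave 16521, 14317 and 17019 in 5xFAD libraries, against 17438, 15862 and 17515 in WT libraries, with a log2 fold change of −0.09 (95% interval −0.26 to 0.08, SE 0.07). 5xFAD 65 was the lowest library and WT 63 the next lowest. Napb, the brain form of the SNAP adaptor, gave 8922, 8151 and 9304 in 5xFAD libraries, against 9359, 9125 and 9249 in WT libraries, and its log2 fold change was −0.07 (SE 0.06). Napa, the widely expressed form, gave 2156, 2059 and 2256 in 5xFAD libraries, against 2138, 2102 and 2134 in WT libraries, and its log2 fold change was 0.02 (SE 0.05). For Napb, 5xFAD 64 and 65 lay below all WT libraries and 5xFAD 79 among them, while for Napa the WT range lay inside the 5xFAD range. The highest library exceeded the lowest by 1.22-fold for Nsf, 1.15-fold for Napb and 1.10-fold for Napa.

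The calcium sensors and complexins varied most from library to library. Syt1 (ENSMUSG00000035864.15), the fast calcium sensor of forebrain synapses, had the largest SD within groups of the 29 genes, 0.28 on the log2 scale. It gave 7688, 10034 and 7332 in 5xFAD libraries, against 7995, 9884 and 6393 in WT libraries, so that 5xFAD 65 and WT 63 stood above the rest in both genotypes. Its log2 fold change was 0.05 (95% interval −0.41 to 0.52, SE 0.19). Syt2, the fast sensor of many hindbrain synapses, gave 11009, 9561 and 12311 in 5xFAD libraries, against 12201, 10036 and 12866 in WT libraries, and the same 2 libraries were lowest. Its log2 fold change was −0.09 (95% interval −0.37 to 0.18, SE 0.12). Cplx1 gave 14737, 12447 and 16839 in 5xFAD libraries, against 16857, 14139 and 17135 in WT libraries. Cplx2 gave 5849.6, 6984 and 5635 in 5xFAD libraries, against 5147, 7112 and 4872 in WT libraries. Libraries 65 and 63 were thus lowest for Cplx1 and highest for Cplx2. The log2 fold changes were −0.13 (SE 0.12) for Cplx1 and 0.12 (SE 0.16) for Cplx2. Doc2a, a calcium sensor of spontaneous and asynchronous release, gave 193, 207 and 193 in 5xFAD libraries, against 194, 209 and 138 in WT libraries. Its log2 fold change was 0.15 (95% interval −0.20 to 0.50, SE 0.16). WT 66 was its lowest library by a wide margin, and without that library the value was −0.03.

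The synaptotagmin and complexin pairs moved in opposite ways between libraries, and the sequences before their starts are shown for that reason. Each is the 250 bases before the first RefSeq start listed for the gene in GRCm38.p6, which is not the build of the deposited files (mm39), read 5′ to 3′ on the strand of the gene. Capitals mark the motif GGGCGG or its reverse complement, the GC box bound by Sp-family factors.
Cplx1 (chr5:108550028-108550277, minus strand): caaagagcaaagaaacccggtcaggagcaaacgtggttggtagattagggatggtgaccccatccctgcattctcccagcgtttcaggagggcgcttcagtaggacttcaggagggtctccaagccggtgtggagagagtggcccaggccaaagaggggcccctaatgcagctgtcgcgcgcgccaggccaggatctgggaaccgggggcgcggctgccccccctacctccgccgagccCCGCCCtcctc
Cplx2 (chr13:54302306-54302555, plus strand): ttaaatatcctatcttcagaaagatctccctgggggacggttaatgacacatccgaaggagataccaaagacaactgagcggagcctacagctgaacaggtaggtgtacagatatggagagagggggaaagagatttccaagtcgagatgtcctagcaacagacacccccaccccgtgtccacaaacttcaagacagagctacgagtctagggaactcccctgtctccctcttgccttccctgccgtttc
Syt1 (chr10:109010976-109011225, minus strand): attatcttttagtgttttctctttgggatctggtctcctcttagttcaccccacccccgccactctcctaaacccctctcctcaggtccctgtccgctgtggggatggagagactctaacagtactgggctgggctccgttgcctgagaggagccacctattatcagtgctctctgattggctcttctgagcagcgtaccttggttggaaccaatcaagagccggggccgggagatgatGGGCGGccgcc
Syt2 (chr1:134646362-134646611, plus strand): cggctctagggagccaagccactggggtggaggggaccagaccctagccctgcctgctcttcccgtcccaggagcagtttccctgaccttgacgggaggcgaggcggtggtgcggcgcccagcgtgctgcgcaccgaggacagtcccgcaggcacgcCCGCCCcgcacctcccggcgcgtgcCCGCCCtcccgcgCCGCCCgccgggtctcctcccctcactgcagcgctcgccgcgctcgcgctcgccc
The Syt2 window held 3 GC boxes, the Cplx1 and Syt1 windows 1 each, and these letters are not in the Cplx2 window. Syt1 and Syt2 each have another listed start, not shown, whose windows held 0 and 2 GC boxes. Of the 25 vesicle genes with a window in the RefSeq table, 17 (68.0%) held GGGCGG on either strand in at least 1 window, against 35.4% of all 27025 genes. The 25 genes had 35 windows and all genes 32851, and a gene with more windows has more chances of a match. All genes here include those with no reads in these libraries. With GC content averaged over the windows of each gene, the median over genes was 62.0% for the vesicle genes and 52.4% for all genes. TATAAA was found for 1 of the 25 (4.00%), Sv2b, against 14.3% of all genes, and the cyclic-AMP response element TGACGTCA for 2, Sh3gl2 and Syn1 (8%), against 1.77%. The NRF1 core GCGCATGC was found for Bsn and Syn1 (8%, against 2.56% of all genes), and the E-box CACGTG for Napa, Nsf and Sv2b (12%, against 6.86%). None of these motifs contains another, although neighbouring matches can share bases, and a match describes the sequence only.

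Genes of the vesicle itself had 2 positive and 6 negative log2 fold changes, and none passed. Syp gave 16584, 16201 and 17359.9 in 5xFAD libraries, against 17724, 16579 and 17761 in WT libraries, with a log2 fold change of −0.05 (95% interval −0.18 to 0.07, SE 0.06). All 6 libraries lay close together and the groups overlapped. Sv2a, the vesicle glycoprotein that binds the antiepileptic drug levetiracetam, was the steadiest of the 29 genes. It gave 11062, 10817 and 11080.4 in 5xFAD libraries, against 10918, 10905 and 11028 in WT libraries, a 1.02-fold range over all 6, with a log2 fold change of 0.0047 (95% interval −0.10 to 0.11, SE 0.05). Its relative Sv2c, which is largely restricted to brainstem and basal ganglia, gave 4428, 4144 and 5355 in 5xFAD libraries, against 5408, 4986 and 5088 in WT libraries. 5xFAD libraries 64 and 65 lay below all WT libraries and 5xFAD 79 lay among them, with a log2 fold change of −0.16 (95% interval −0.36 to 0.04, SE 0.09) and an unadjusted limma p of 0.109. Without 5xFAD 79 the value was −0.27 (limma adjusted p = 0.982). The third member, Sv2b, ranged from 2692 to 3270.2 in 5xFAD libraries and from 3069 to 3308 in WT libraries.

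Rab3a, the GTPase that tethers vesicles, gave 5754, 5619 and 5855 in 5xFAD libraries, against 6166, 5759 and 6184 in WT libraries, with a log2 fold change of −0.07 (95% interval −0.19 to 0.05, SE 0.05). 5xFAD 64 and 65 lay just below the lowest WT library, 63, and 5xFAD 79 above it. Rph3a, the Rab3 effector rabphilin, gave 8599, 7801 and 9435 in 5xFAD libraries, against 9847, 8471 and 10345 in WT libraries. Its lowest library was 5xFAD 65 and its highest WT 66, with overlap between the groups and a log2 fold change of −0.15 (95% interval −0.36 to 0.06, SE 0.09). The synapsins, which cluster the reserve pool of vesicles, differed little between genotypes. Syn1 ranged from 4499.9 to 5097 in 5xFAD libraries and from 4649 to 4858 in WT libraries. Syn2 ranged from 4699.8 to 5189.8 in 5xFAD libraries and from 4458 to 5257 in WT libraries. The sign of the small Syn1 value, a log2 fold change of −0.01 (SE 0.06), turned to 0.0039 with quantile normalization.

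All 6 genes of the active zone and of priming had positive log2 fold changes, and none passed. Bsn (ENSMUSG00000032589.15), the giant scaffold bassoon, had the smallest unadjusted p of the 29 genes, 0.0844 in the limma test (adjusted p = 0.9995). It gave 2582, 2628 and 2487 in 5xFAD libraries, against 2237, 2582 and 2232 in WT libraries, so that WT 63 lay at the level of the 5xFAD libraries and the other 2 WT libraries lay below all of them. Its log2 fold change was 0.13 (95% interval −0.02 to 0.28, SE 0.07). Pclo, the related scaffold piccolo, gave 4768, 5151 and 4849 in 5xFAD libraries, against 4700.4, 5272 and 4389 in WT libraries, and its log2 fold change was 0.04 (SE 0.07). WT libraries 63 and 66 were the highest and the lowest of the 6 for Pclo. For Rims1 and Rims2, which link vesicles to calcium channels, the log2 fold changes were 0.07 (SE 0.07) and 0.07 (SE 0.08). Rims1 ranged from 1986 to 2156 in 5xFAD and from 1807 to 2159 in WT libraries. Rims2 ranged from 1116 to 1268 in 5xFAD and from 1049 to 1268 in WT libraries. For Unc13a, the priming factor Munc13-1, and Erc2, the scaffold CAST, they were 0.0079 (SE 0.08) and 0.01 (SE 0.08), both near 0. Unc13a ranged from 2555 to 2766 in 5xFAD and from 2394 to 2939 in WT libraries. Erc2 ranged from 956 to 991 in 5xFAD and from 865 to 1089 in WT libraries. The WT range enclosed the 5xFAD range in both genes. WT 66 was the lowest of the 6 libraries for all 6 active-zone genes. Without it the values of Unc13a, Pclo and Erc2 were −0.07, −0.02 and −0.07, so the shared sign did not hold for these 3. WT 66 also had the highest sum of choroid plexus and ependyma genes, 1947 normalized counts, against at most 870 in any other library. Most of that came from Ttr alone, at 1107 in WT 66 and at most 61.2 in any other library. The ependymal genes did not set WT 66 apart, with Foxj1 at 554 and Ccdc153 at 277, against 533 and 324 in 5xFAD 65. The part of such tissue in these values was not tested.

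The 3 endocytic genes were steady over the libraries, and Dnm1 was the highest of them. Dnm1, the neuronal dynamin that pinches off vesicles, gave 15105, 14131 and 15801 in 5xFAD libraries, against 15667, 14567 and 16106 in WT libraries, with a log2 fold change of −0.04 (95% interval −0.18 to 0.10, SE 0.06). The groups overlapped, with 5xFAD 65 and WT 63 lowest. Synj1, the lipid phosphatase that uncoats vesicles, ranged from 7773 to 8673 in 5xFAD libraries and from 8302 to 8907 in WT libraries, and its log2 fold change was −0.05 (SE 0.06). Sh3gl2, which encodes endophilin A1, ranged from 5311 to 6104 in 5xFAD libraries and from 5324 to 5769 in WT libraries, at a difference of 0.03 (SE 0.06) on the log2 scale. For all 3 the lowest library was 5xFAD 65. The small Dnm1 value turned sign, to 0.0090, when libraries were centred on pan-neuronal genes.

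**Figure D3:**
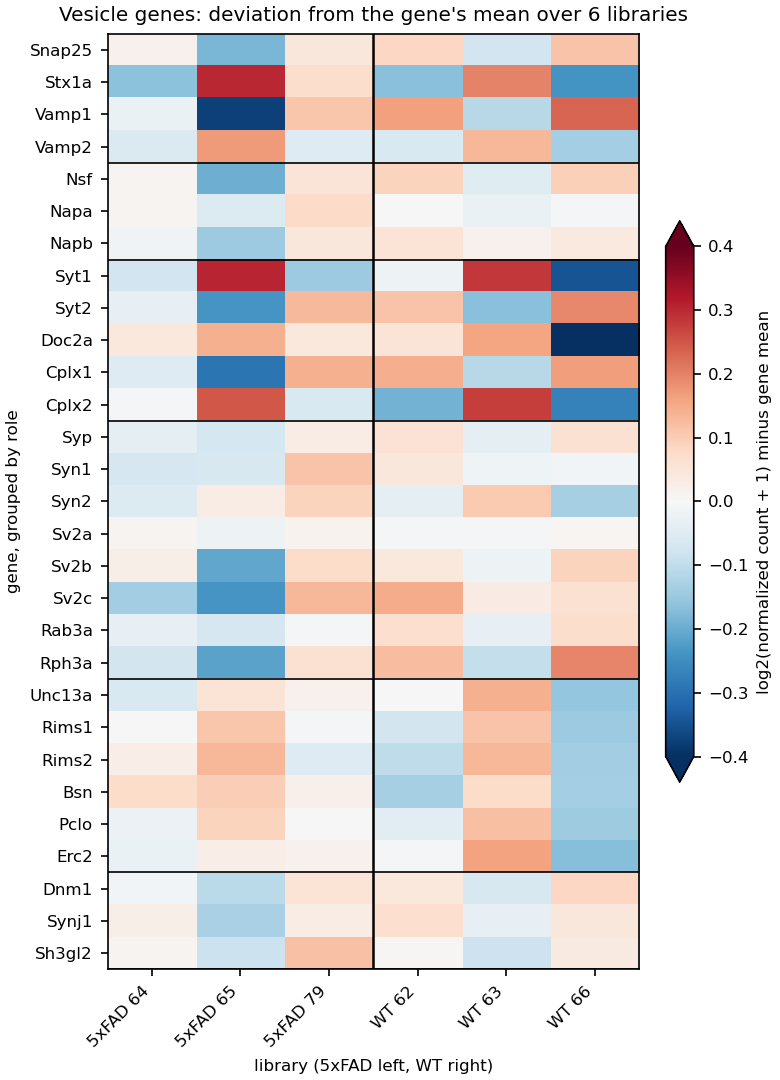
Deviation of each vesicle gene from its own mean over the 6 libraries, on the log2(normalized count + 1) scale (colour), with genes in rows by role and libraries in columns, 5xFAD left and WT right. Columns 5xFAD 65 and WT 63 share red cells (above the mean) for Stx1a, Vamp2, Syt1, Cplx2 and the active-zone genes and blue cells (below it) for Snap25, Vamp1, Syt2 and Cplx1.

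Paralogues were also set against each other within each library, a comparison that does not depend on how libraries are scaled. Log2 ratios of 9 pairs were compared between genotypes with a two-sided exact permutation test, for which 3 against 3 allows no p under 0.1. Reads of Napb over those of Napa gave log2 ratios of 2.05, 1.98 and 2.04 in 5xFAD libraries, against 2.13, 2.12 and 2.12 in WT libraries. Every 5xFAD library lay below every WT library, at a mean difference of −0.10 on the log2 scale (exact permutation p = 0.1, adjusted p = 0.450 over 9 pairs). Pclo over Bsn gave 0.88, 0.97 and 0.96 in 5xFAD libraries, against 1.07, 1.03 and 0.98 in WT libraries. Here too the groups did not overlap, at a mean difference of −0.09 (exact permutation p = 0.1, adjusted p = 0.450). Neither pair passed. Groups did not overlap in 2 of 9 ratios here and in 7.42% of all tested genes by level. Levels and ratios within a library are unlike measures, so that share is no background for the ratios. The remaining 7 pairs overlapped between genotypes, with exact permutation p-values from 0.3 for Sv2c over Sv2a to 0.8 for Rims1 over Rims2.

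**Figure D4:**
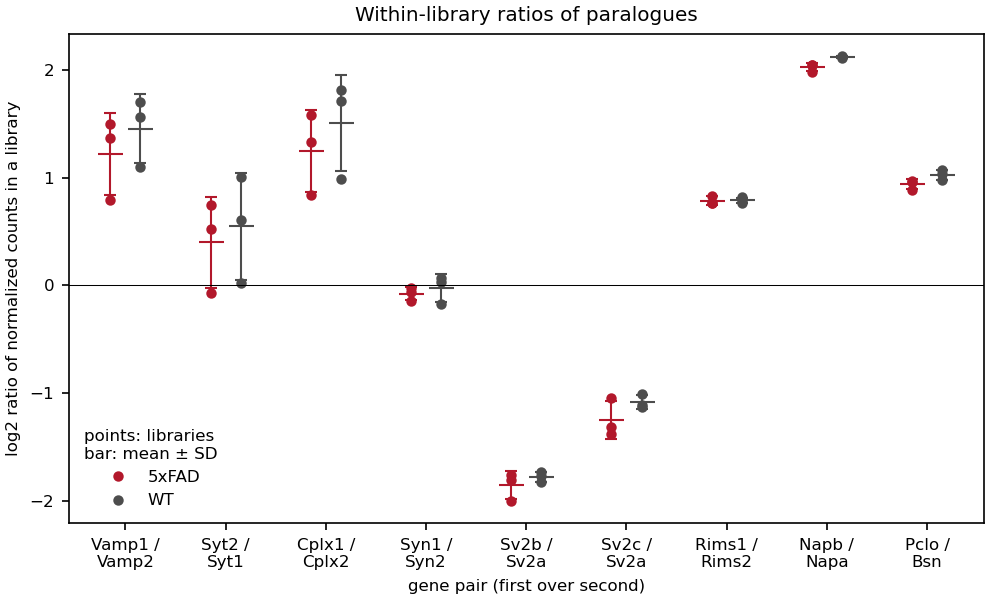
Log2 ratio of normalized counts of 9 gene pairs (y axis) in each library, with 5xFAD points left and WT points right and a bar for the mean ± SD (n = 3 each). The Napb over Napa and Pclo over Bsn points do not overlap between genotypes, and the Vamp1, Syt2 and Cplx1 ratios spread widely within each.

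The ratios of 3 pairs had the widest ranges over the 6 libraries. Vamp1 over Vamp2 gave log2 ratios of 1.37, 0.79 and 1.501 in 5xFAD libraries 64, 65 and 79, against 1.56, 1.09 and 1.70 in WT libraries 62, 63 and 66. Syt2 over Syt1 gave 0.52, −0.07 and 0.75 in 5xFAD libraries, against 0.61, 0.02 and 1.01 in WT libraries, and Cplx1 over Cplx2 gave 1.33, 0.83 and 1.58 in 5xFAD libraries, against 1.71, 0.99 and 1.81 in WT libraries. All 3 ratios were lowest in 5xFAD 65, next lowest in WT 63 and highest in WT 66. Per kilobase of exon, Vamp1 ranged from 0.648 to 1.22 times the level of Vamp2, Syt2 from 1.04 to 2.20 times that of Syt1, and Cplx1 from 4.01 to 7.92 times that of Cplx2. The difference between genotypes was −0.23 for Vamp1 over Vamp2, −0.15 for Syt2 over Syt1 and −0.26 for Cplx1 over Cplx2 (exact permutation p = 0.5, 0.7 and 0.5, adjusted p = 0.75 to 0.79). Without 5xFAD 65 the differences were −0.019, 0.086 and −0.049, and without WT 63 they were −0.41, −0.41 and −0.51. With all libraries these differences were smaller than the SD within either genotype, which was 0.32 to 0.50 over the 3 pairs.

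Sums of some marker lists moved with these ratios, and sums of others did not. The summed normalized count of 5 Purkinje cell genes of the cerebellum (Pcp2, Calb1, Ppp1r17, Car8 and Itpr1) was 12297, 26187 and 7233 in 5xFAD libraries, against 4014, 19982 and 5236 in WT libraries. It was highest in 5xFAD 65 and next highest in WT 63, and all 5 genes had reads in every library. Calb1 and Itpr1 are also expressed by other neurons. Among 8 genes of cerebellar granule cells the sum was 10065, 12684 and 7586 in 5xFAD libraries, against 5783, 11711 and 6297 in WT libraries, with the same 2 libraries on top. Calb2, the largest part of that sum, gave 3614, 3200 and 3531 in 5xFAD libraries, against 3590, 3923 and 3171 in WT libraries. It was thus not raised in 5xFAD 65. Rbfox3 counts in both this list and the pan-neuronal list. The sum of 8 noradrenergic genes, 9162, 13349 and 9972 in 5xFAD libraries, against 10561, 11892 and 6325 in WT libraries, was likewise highest in 5xFAD 65 and WT 63, and lowest in WT 66. The sum of 8 oligodendrocyte genes, 283764, 206689.6 and 323453 in 5xFAD libraries, against 260348, 214212 and 270976 in WT libraries, was lowest in 5xFAD 65 and WT 63. The same 2 libraries were also lowest for glutamate neuron, astrocyte, microglia, and endothelial and mural cell genes, over narrower ranges of 1.10- to 1.19-fold. Not all sums followed. That of 5 GABA and glycine neuron genes was 26954, 27194 and 24917 in 5xFAD libraries, against 28033, 27470 and 28250 in WT libraries. It was highest in WT 66 and lowest in 5xFAD 79. Every 5xFAD library lay below every WT library in this sum, a difference that was not tested. That of 3 cholinergic neuron genes was 1994 in WT 63 but 995 in 5xFAD 65, below the 1125 of WT 62. Going down the Purkinje sum from 5xFAD 65 through WT 63 and 5xFAD 64 to 5xFAD 79, each of the 3 ratios went up at every step. WT 66 and WT 62 had the lowest Purkinje sums and the highest Vamp1 and Cplx1 ratios, in WT 66 above WT 62 although its Purkinje sum was also above. The Syt2 ratio broke this order in WT 62, where it was below that of 5xFAD 79. The part of these markers in the ratios was not tested.

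**Figure D5:**
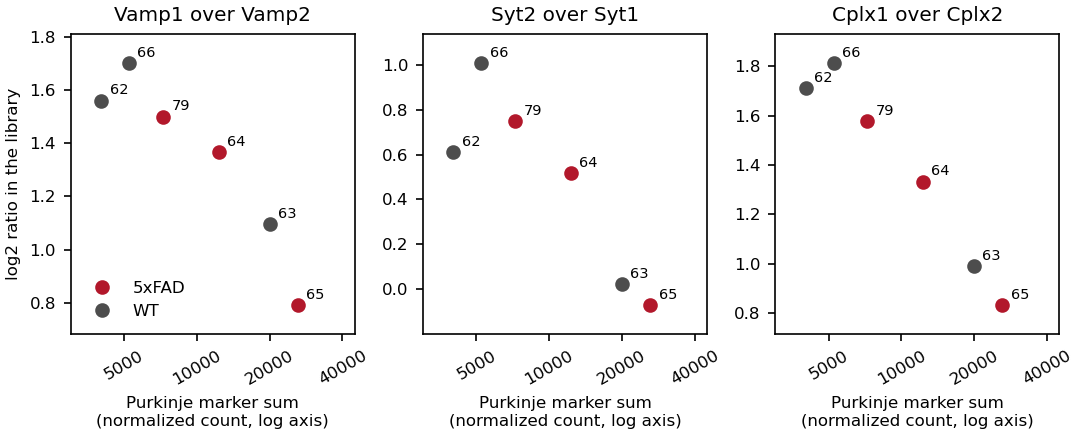
Log2 ratio of Vamp1 over Vamp2, Syt2 over Syt1 and Cplx1 over Cplx2 (y axes) against the summed normalized count of 5 Purkinje cell genes (x axis, log scale) in each library, numbered as in the labels. 5xFAD 65 and WT 63 lie at the right and lowest in each panel, and the libraries of the genotypes are interleaved.

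The same 2 libraries stood at an end of the range for most vesicle genes. In 11 of the 29 genes (37.9%) both 5xFAD 65 and WT 63 lay above the other 4 libraries, against 13.7% of all tested genes. These were Stx1a, Vamp2, Syt1, Doc2a, Cplx2 and all 6 active-zone genes. In 13 of the 29 (44.8%) both lay below the other 4, against 14.8% of all tested genes, among them Snap25, Vamp1, Nsf, Syt2, Cplx1, Syp, Rph3a and the 3 endocytic genes. The 2 libraries were picked after the values of these genes were seen, so shares above those of all tested genes are no test. Both counts describe these libraries and set no genotype against the other. The sum of 15 pan-neuronal genes was 179832, 166917 and 187903 in 5xFAD libraries, against 199809, 178875 and 191077 in WT libraries. It too was lowest in 5xFAD 65 and next lowest in WT 63, just under 5xFAD 64, and its part in these counts was not tested.

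The count at an unadjusted p under 0.05 depended on single libraries. It was 4 without WT 63 (Cplx2, Rph3a, Rims1 and Bsn), against 6.03% of all tested genes, and 2 without 5xFAD 79 (Sv2c and Rph3a), against 3.42%. With libraries centred on pan-neuronal genes it was 1 (Bsn), against 2.84%.

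The comparison of genotypes was repeated without 5xFAD 65 and WT 63, a choice made after their values were seen. Again 0 of the 29 genes passed in the limma test. At an unadjusted p under 0.05 there were 4, against 6.70% of all tested genes in that comparison. Cplx2 differed by 0.20 on the log2 scale (SE 0.05, limma adjusted p = 0.380), Bsn by 0.18 (SE 0.06, adjusted p = 0.448), Vamp1 by −0.16 (SE 0.05, adjusted p = 0.547) and Rph3a by −0.16 (SE 0.06, adjusted p = 0.534), with n = 2 in each group. With the mean log2 value of the Purkinje genes as a covariate over all 6 libraries, 0 of the 29 passed and 0 had an unadjusted p under 0.05, against 3.77% of all tested genes. In that fit Bsn had a log2 fold change of 0.06 and Vamp1 one of −0.04, and 5 of the 6 active-zone genes had a negative value.

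Other genes of vesicle release and recycling showed the same lack of calls. Of 101 further genes, 99 were found in the table by symbol and 97 passed the filter on low values. Of these 97, 51 had positive and 46 negative log2 fold changes, 0 passed in the limma test, against 0.00609% of all tested genes, and 2 had an unadjusted p under 0.05, against 2.32%. Their median log2 fold change was 0.012. The 95% interval lay within 1.5-fold for 88 (90.7%), against 71.4% of all tested genes. The median level was 1442 normalized counts for the further genes and 319 for all tested genes. The groups did not overlap in 6 of the 97, with 3 higher in 5xFAD (Syt10, Apba2 and Sh3gl1) and 3 lower (Dnajc5, Pacsin1 and Slc17a8), against 7.42% of all tested genes. Apba2, Dnajc5 and Pacsin1 are named because they complete this count and were chosen after their values were seen. The complexin genes of ribbon synapses, Cplx3 and Cplx4, were under the filter, at 0 to 4.62 normalized counts over the 6 libraries.

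Sh3gl1, the broadly expressed endophilin A2 and paralogue of Sh3gl2, had the smallest p of them. It gave 322, 337 and 319.9 in 5xFAD libraries, against 270.2, 275 and 282 in WT libraries, with a log2 fold change of 0.24 (95% interval 0.06 to 0.43, SE 0.08) and a limma adjusted p of 0.9995. The lowest 5xFAD library exceeded the highest WT library, at a level per kilobase of 65.1 in 5xFAD and 55.0 in WT libraries, against 869.7 and 852 for Sh3gl2. Slc17a8, the vesicular glutamate transporter VGLUT3, gave 69.3, 81.1 and 81.0 in 5xFAD libraries, against 141, 95.5 and 94.9 in WT libraries, and its log2 fold change was −0.49 (SE 0.19). Syt10, a synaptotagmin, gave 63.6, 56.2 and 48.0 in 5xFAD libraries, against 32.5, 41.3 and 48.0 in WT libraries, with one of 0.46 (SE 0.22). The lowest 5xFAD and the highest WT library of Syt10 were nearly equal. Neither passed (limma adjusted p = 0.9995 each). Slc32a1, the vesicular transporter of GABA and glycine, differed by −0.13 (SE 0.06) on the log2 scale, and Doc2b, the relative of Doc2a, by 0.44 (SE 0.49) with a 3.10-fold range over the libraries. Doc2b gave 525, 748 and 388 in 5xFAD libraries, against 342, 733 and 241 in WT libraries, and was highest in 5xFAD 65 and WT 63. Among the highest of the further genes were the uncoating chaperone Hspa8 at 44193 ± 3642 normalized counts in 5xFAD and 45379.6 ± 5213 in WT libraries and the clathrin heavy chain Cltc at 15932 ± 951 in 5xFAD and 16675 ± 674 in WT libraries (SD, n = 3 each).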

How the data were processed

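Poly-A RNA of 6 libraries had been sequenced, aligned and quantified with STAR and RSEM against mm39 and tested with DESeq2, per the submitters' processing notes, which name no versions or settings. The deposited signal values are reads per gene after division by a library's size factor, although the table's name calls them TPM: in every library all values were whole multiples of 1 step (tolerance 0.001). The authors' deposited table also holds a log2 fold change of WT over 5xFAD, its standard error, a p-value, an adjusted p-value and a score (the test statistic). The strand setting, annotation release and filters used are not stated, so reads of overlapping genes cannot be told apart. A suffix that looks like a lane number differs in every column, so lane and genotype cannot be told apart.

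The test between genotypes was limma 3.58.1 (trend, robust) on log2(normalized count + 1), run on the 16411 genes with at least 10 in at least 3 of 6 libraries, with Benjamini-Hochberg adjustment over all of them and a threshold of 0.05. Low genes are understated on that scale. edgeR 4.0.16 (quasi-likelihood) and DESeq2 1.42.0 on the recovered reads were alternatives. The limma script was tested on simulated data. Names were matched for 52073 of 56923 identifiers. Exon lengths came from GENCODE M21 (GRCm38), promoters from RefSeq (GRCm38.p6), whose build is not that of the files. The members and lists were chosen with earlier results of these data known. Values per library are given for genes among the 6 smallest p, the 6 largest differences, the 6 highest levels, the 4 largest SDs or the 3 pairs with the smallest p, plus Vamp2 and Syt2, and from the further genes for the 4 smallest p, the 3 largest differences and the 3 highest levels (as means), of which 1 is not reported here. Alternatives that use the Purkinje level were added after seeing the data.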

Additional observations from a re-analysis of the deposited data

How the results depend on the processing

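The count of vesicle genes past the adjusted threshold was 0 under every alternative run: 2 pseudocounts, 2 filters, quantile and TMM scaling, centring on pan-neuronal genes, limma without trend, edgeR, DESeq2, each library left out, both libraries of highest Purkinje level left out, and the Purkinje level as a covariate. The count at an unadjusted p under 0.05 was 0 with all libraries, 1 with pan-neuronal centring (Bsn), 4 without both high-Purkinje libraries and 0 to 4 with each library left out. It was 4 without WT 63 (Cplx2, Rph3a, Rims1 and Bsn, against 6.03% of all tested genes) and 2 without 5xFAD 79 (Sv2c and Rph3a, against 3.42%). Among the further genes that count was 2, against 1 with DESeq2, 11 without both libraries (6.70% of all tested genes) and 1 to 13 with each library left out, 13 being the value without WT 63 (6.03% of all tested genes). Pan-neuronal centring moved the median log2 fold change of all tested genes to 0.051, that of the vesicle genes to 0.055 and that of the further genes to 0.062. The cause was not tested. With 3 libraries a group, exact tests of ratios allow no p under 0.1.

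Log2 fold changes that changed sign under some setting included larger ones, Doc2a, Stx1a, Cplx1, Cplx2 and Doc2b among them. With the Purkinje covariate the log2 fold changes were Snap25 0.0015, Stx1a −0.0062, Vamp2 −0.052, Syt1 −0.13, Syt2 0.044, Cplx1 0.0037, Cplx2 −0.057, Syn1 0.029, Unc13a −0.049, Rims1 −0.0042, Rims2 −0.022, Pclo −0.023, Erc2 −0.048, Dnm1 0.015, Doc2b −0.034 and Hspa8 0.069. Quantile normalization gave Syn1 0.0039 and Hspa8 0.0073, and pan-neuronal centring Syn1 0.040, Dnm1 0.0090 and Hspa8 0.015. Without both high-Purkinje libraries Syn1 was 0.0075. With each library left out in turn the ranges that crossed 0 were Vamp2 −0.034 to 0.12, Napa −0.012 to 0.054, Syt1 −0.10 to 0.21, Syt2 −0.20 to 0.00073, Doc2a −0.028 to 0.27, Syn1 −0.069 to 0.020, Syn2 −0.013 to 0.11, Sv2a −0.0015 to 0.016, Sv2b −0.13 to 0.011, Unc13a −0.067 to 0.081, Pclo −0.017 to 0.12, Erc2 −0.071 to 0.095, Dnm1 −0.083 to 0.0015, Synj1 −0.082 to 9.4e-05, Sh3gl2 −0.023 to 0.078 and Hspa8 −0.11 to 0.053, and, for the differences in log2 ratio, −0.41 to 0.086 for Syt2 over Syt1 and −0.025 to 0.011 for Rims1 over Rims2. The other vesicle genes, Vamp1, Nsf, Napb, Syp, Sv2c, Rab3a, Rph3a and Bsn, had 1 sign under every alternative run. With each library left out in turn, Vamp1 ran from −0.30 to −0.053, Sv2c from −0.27 to −0.083, Rph3a from −0.23 to −0.080, Bsn from 0.094 to 0.20, Cplx1 from −0.24 to −0.021, Cplx2 from 0.019 to 0.29 and Stx1a from 0.021 to 0.27, and the difference in log2 ratio from −0.41 to −0.019 for Vamp1 over Vamp2 and from −0.51 to −0.049 for Cplx1 over Cplx2. No paired analysis was possible because the libraries of the genotypes share no replicate numbers.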
